A study of Mus musculus with 6 samples.

Results

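Nuclear receptors are transcription factors that bind DNA and, in many cases, a small fat-soluble ligand such as a fatty acid, a bile acid, a steroid or a hormone. In liver they switch on or hold back genes of fat burning, bile acid and cholesterol handling, drug clearance and glucose supply, and many of them work as a pair with a retinoid X receptor (RXR). Coactivator proteins join the ligand-bound receptor to raise transcription, and corepressor proteins join the unbound receptor to hold it down.

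A set of 35 nuclear receptor genes was followed in bulk liver RNA, out of 56350 gene IDs in the count table. The members were a named list, matched by Ensembl ID to GENCODE M21 symbols, and all 35 were found. They were split into 12 receptors with well known roles in liver metabolism (Hnf4a, Nr0b2, Nr1h3, Nr1h4, Nr1i2, Nr1i3, Nr3c1, Nr5a2, Ppara, Rora, Rxra and Thrb) and 23 other receptors. The samples were polyA RNA libraries of mouse liver, 3 from wild-type mice (WT) and 3 from mice whose hepatocytes carried an Atg14 knockout (HepKO). The protein made from Atg14 directs a phosphatidylinositol kinase to the sites where autophagosomes form, and the comparison asks how its loss from hepatocytes changed liver RNA. The labels give no age, sex, strain, diet, time of collection, Cre driver or deleted exon. Nor is it stated whether each sample is a different animal, so the p-values measure only how these samples vary.

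Library totals ran from 33145684 to 48951937 counts, and 16051 genes were tested. Levels are given as CPM, the count as a share of a library total scaled by the trimmed mean of M-values (TMM). Atg14 itself, the check of the labels, stood at 20.9, 22.2 and 21.0 CPM in WT and at 5.66, 8.45 and 7.95 CPM in HepKO, a log2 fold change of -1.54 ± 0.16 (SE; adjusted p = 4.69e-04, edgeR quasi-likelihood test with Benjamini-Hochberg adjustment). HepKO replicate 1 stood apart from the other 5 libraries on sex-linked genes. It held 30377 counts of Xist, against 2 to 22 in the others, and 3 to 6 counts of each of 4 Y-linked genes, against 571 to 3482 in the others. Where its absence changed the call of a receptor or target gene named here, the adjusted p without it is given too. For some genes this adjusted p is given only within a range over single-library omissions.

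The choice of scaling moved every fold change by about the same amount. Over all tested genes the median log2 fold change was 0.01 with TMM scaling and 0.52 with plain library totals, so each change is relative to the scaling. Under TMM, 38.2% of the tested genes were called at an adjusted p under 0.05 (19.5% higher and 18.7% lower in HepKO). With library totals 46.4% were called higher and 5.84% lower. In bulk tissue, fewer cells of a type and less RNA per cell cannot be told apart. The summed level of 7 hepatocyte markers (Alb, Apoa1 and others) was 89586 to 111427 CPM in WT and 38250 to 45805 CPM in HepKO, and 6 of the 7 fell. Alb alone made up most of that sum (68825 to 90310 CPM in WT and 29488 to 36371 CPM in HepKO). A list of 6 bile duct markers summed to 44 to 61.9 CPM in WT and 148 to 561 CPM in HepKO, and 4 of the 6 rose. Most of this sum was Spp1 (35.2 to 54.4 CPM in WT and 134 to 515 CPM in HepKO). Krt19 and Krt7 were not called, and in HepKO replicate 3 (0.203 and 0.152 CPM) they lay below every WT library. These bile duct genes were named after their values were seen. The part of such shifts in the receptor values was not tested.

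A receptor reads DNA through a pair of zinc fingers. The coding stretch of the first finger is shown for 1 member of each of 6 forms, because the letters at its end set which half-site the receptor binds. Each stretch is 69 bases of the sense strand, 5′ to 3′, from the GENCODE M21 transcripts (GRCm38), and the capitals mark the last 18 bases, which encode the DNA-reading box.
Ppara: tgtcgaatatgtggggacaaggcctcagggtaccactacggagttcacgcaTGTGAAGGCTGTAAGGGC
Hnf4a: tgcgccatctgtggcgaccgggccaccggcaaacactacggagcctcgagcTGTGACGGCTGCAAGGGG
Nr2f2: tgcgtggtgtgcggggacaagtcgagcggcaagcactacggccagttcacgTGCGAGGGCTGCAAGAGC
Nr5a2: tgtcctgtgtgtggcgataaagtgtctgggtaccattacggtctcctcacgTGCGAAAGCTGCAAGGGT
Esrra: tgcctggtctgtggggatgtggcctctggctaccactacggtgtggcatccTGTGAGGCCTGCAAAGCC
Esr1: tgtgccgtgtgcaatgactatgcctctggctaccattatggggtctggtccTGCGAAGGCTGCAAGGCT

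The stretch was found in 33 of the 34 members searched, and Nr3c1 was not searched. Nr0b2, which encodes the small heterodimer partner (SHP), held no such stretch; SHP is known to lack a DNA-binding domain and to act by holding other receptors down. Apart from synonymous codons, the capitals took 7 forms. The form of Ppara was shared by 24 members, which include the RXR, PPAR, RAR, thyroid hormone, LXR, FXR, PXR and CAR receptors. Nr2f1, Nr2f2 and Nr2f6 shared a form, as did Hnf4a and Hnf4g, and the other 4 forms had 1 member each. Members of the same box form moved in both directions in HepKO: Nr1i3, Ppara and Rara fell and Rarg rose with the same box. Subtypes of a family had 49 (Nr1i2 and Nr1i3) to 65 (Nr2f1 and Nr2f2) of the 69 bases in common.

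Of the 35 receptors, 34 passed the low-count filter, and Hnf4g (3, 10 and 3 counts in WT, and 32, 15 and 5 in HepKO) did not. Under TMM 4 were called higher in HepKO (Nr4a1, Nr4a3, Rarg and Vdr), 15 lower and 15 were not called, against a background of 19.5% higher and 18.7% lower. Falls were more frequent among the liver metabolic receptors than among the rest. Of the 12 metabolic receptors 11 fell and none rose, with Nr1h3 the exception, and their median log2 fold change was -0.82. All 12 had a negative log2 fold change under TMM, and DESeq2 likewise called 0 higher and 11 lower. Of the 22 other receptors tested 4 rose and 4 fell (Esrra, Nr2c1, Nr2f2 and Rara), with a median of -0.00074, near that of all genes. With library totals the medians were -0.31 and 0.51, against 0.52 for all genes. There 6 metabolic receptors were called lower and Nr1h3 higher, and of the others 12 were called higher and only Rara lower. Of all tested genes 46.4% were called higher with library totals and 5.84% lower. Without overlap between groups, 18 receptors were lower and 7 higher in HepKO, where 53.5% of all genes did not overlap. All 12 metabolic receptors lay below the median of all genes under both scalings, as did 11 of the 22 others.

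The falls called under both scalings were those of Nr1h4, Nr1i2, Nr1i3, Ppara, Rxra and Thrb among the metabolic receptors and of Rara among the rest, where 5.84% of all genes were called lower under both. Library totals move all changes upward, and all 3125 genes that TMM called higher were called higher there, so a rise under both scalings adds nothing to the TMM call. Without HepKO replicate 1, 9 metabolic receptors were called lower, and of the others 5 were lower and 1 (Rarg) higher, where 17.5% of all genes were called lower and 16.3% higher. The count of 11 metabolic receptors dropped to 7 on leaving out WT replicate 1, WT replicate 2 or HepKO replicate 3. The summed level of the 12 metabolic receptors was 2253, 2292 and 2603 CPM in WT and 1275, 1345 and 1299 CPM in HepKO. The other 23 summed to 332, 344 and 329 CPM in WT and to 331, 294 and 289 CPM in HepKO. These ranges overlapped only through HepKO replicate 1 (331 CPM), while those of the metabolic receptors did not overlap.

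**Figure D1:**
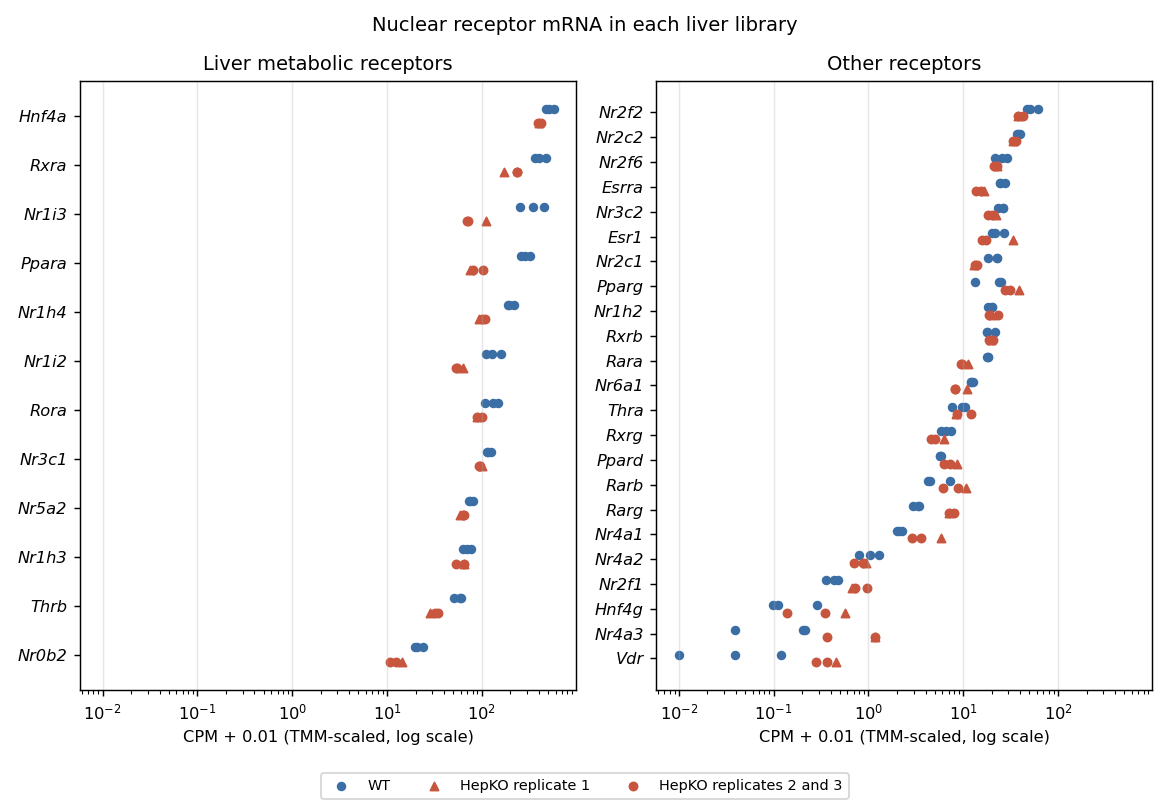
TMM-scaled CPM plus 0.01 (log axis) of each receptor in each library, with liver metabolic receptors on the left and the other receptors on the right, blue for WT and red for HepKO (triangle, HepKO replicate 1). Among the metabolic receptors the WT and HepKO points were separate for 11 of 12, all with HepKO lower, and Nr1h3 overlapped.

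**Figure D2:**
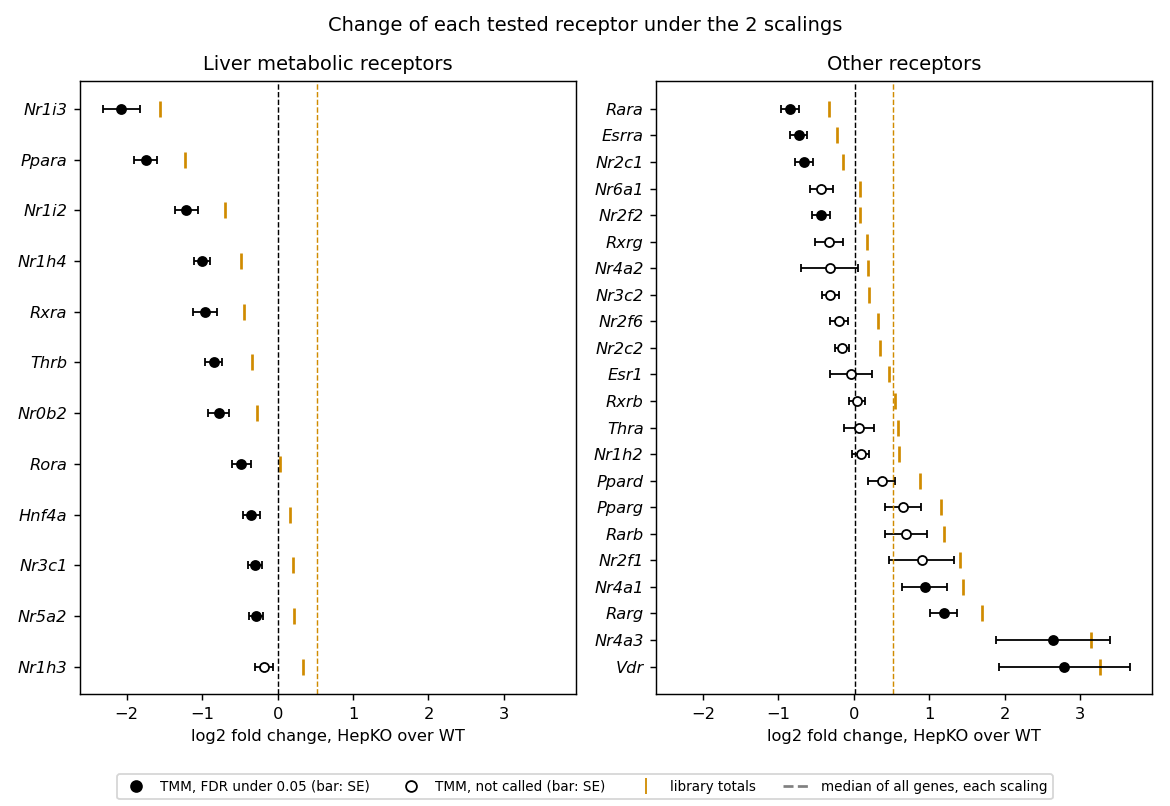
log2 fold change of the 34 tested receptors, HepKO over WT, under TMM (circles with SE bars, filled where the adjusted p was under 0.05) and with library totals (orange ticks), and dashed lines at the median of all genes under each scaling (0.01 and 0.52). Every metabolic receptor lay left of the all-gene median of its scaling, and 5 called under TMM (Hnf4a, Nr2f2, Nr3c1, Nr5a2 and Rora) turned sign with library totals.

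The largest falls were in the drug-sensing and fat-sensing receptors. Nr1i3 on chromosome 1 (171213970 to 171220701, plus strand, GRCm38) encodes the constitutive androstane receptor (CAR), which turns on drug-clearing enzymes. It stood at 254, 350 and 451 CPM in WT and at 110, 69.2 and 71.9 CPM in HepKO. Every HepKO library lay below every WT library, and Nr1i3 fell by 2.07 ± 0.25 on the log2 scale (adjusted p = 8.01e-04, edgeR). On the opposite strand Tomm40l covers 74.9% of its exon length, and the strand setting of the counting is not given in the sources used here, so part of these counts may belong to Tomm40l. Nr1i2 (chromosome 16, 38248323 to 38294824, minus strand), the pregnane X receptor (PXR) and the other main drug sensor, has no such overlap. Its levels were 111, 127 and 161 CPM in WT and 63.6, 54.9 and 54.0 CPM in HepKO. The groups were again separate, with a log2 fold change of -1.21 ± 0.15 (adjusted p = 8.32e-04, edgeR).

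Ppara on chromosome 15 (85734983 to 85802819, plus strand) encodes PPARα, the fatty acid sensor that drives fat burning and ketone production in fasting. Its levels were 262, 289 and 319 CPM in WT and 75.0, 103 and 81.6 CPM in HepKO. The groups lay far apart, and Ppara fell by 1.75 ± 0.15 on the log2 scale (adjusted p = 1.94e-04, edgeR). Leaving out single libraries gave -1.65 to -1.90.

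The upstream sequences of these 3 genes are shown because they carried the largest falls among the members. Each run is the 250 bases before the first RefSeq start in the promoter table (GRCm38.p6), 5′ to 3′ on the gene's own strand, and the capitals mark CG dinucleotides, the sites that DNA methylation acts on.
Nr1i3, chr1:171213720-171213969, plus strand: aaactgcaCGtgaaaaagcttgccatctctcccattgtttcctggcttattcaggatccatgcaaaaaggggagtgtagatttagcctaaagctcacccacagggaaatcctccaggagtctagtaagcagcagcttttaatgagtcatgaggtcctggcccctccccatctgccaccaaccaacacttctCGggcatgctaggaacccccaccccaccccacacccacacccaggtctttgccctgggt
Nr1i2, chr16:38294825-38295074, minus strand: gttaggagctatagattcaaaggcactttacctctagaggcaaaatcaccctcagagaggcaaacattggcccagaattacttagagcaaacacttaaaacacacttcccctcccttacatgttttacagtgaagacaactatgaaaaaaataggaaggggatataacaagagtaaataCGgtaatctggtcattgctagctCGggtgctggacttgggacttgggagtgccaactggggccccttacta
Ppara, chr15:85735526-85735775, plus strand: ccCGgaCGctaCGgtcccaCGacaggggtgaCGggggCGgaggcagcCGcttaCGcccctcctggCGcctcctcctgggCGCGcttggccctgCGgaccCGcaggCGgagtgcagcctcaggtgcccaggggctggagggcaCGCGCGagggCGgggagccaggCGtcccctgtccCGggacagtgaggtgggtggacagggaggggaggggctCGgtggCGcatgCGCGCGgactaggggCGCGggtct

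The Nr1i3 and Nr1i2 runs held 2 CG each and the Ppara run 27, although all 3 mRNAs fell. The RefSeq promoter table matched 32 of the 35 members, with 48 start sites, some of which overlap. Over 300 bases, 250 before and 50 after each start, the ratio of observed to expected CG had a median of 0.27 over 16 promoters of 11 metabolic receptors and of 0.61 over 32 promoters of 21 other receptors, against 0.38 over all 32851 promoters. A ratio above 0.6, a common mark of a CpG island, was found in 4 of the 16, in 18 of the 32 and in 35.8% of all promoters. The receptor half-site AGGTCA, searched on both strands, was in 10 of the 48 member promoters (20.8%), those of Nr1h4, Nr5a2, Nr6a1, Pparg, Rara, Rarg, Rxra, Rxrg and Thrb, and in 16.3% of all promoters. The direct repeats AGGTCANAGGTCA and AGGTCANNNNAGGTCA, each of which holds the half-site, were in none of them and in 0.0396% and 0.0152% of all promoters. The E-box CACGTG, bound by clock and lysosome regulators, was in 5 of 48 (10.4%), from Nr0b2, Nr1i3, Rara and Thrb, and in 7.15% of all promoters. These matches describe letters in the window and no binding was measured.

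Nr1h4 and Nr0b2 of the bile acid axis fell as well under TMM. Nr1h4 (chromosome 10, 89454234 to 89533585, minus strand) encodes FXR, the bile acid sensor. It was at 188, 194 and 220 CPM in WT and at 94.2, 101 and 108 CPM in HepKO. These groups were separate, with a log2 fold change of -1.0 ± 0.11 (adjusted p = 4.59e-04, edgeR). Nr0b2, the SHP gene that FXR turns on to restrain bile acid synthesis, was at 20.8, 23.8 and 19.8 CPM in WT and at 14.4, 12.5 and 10.7 CPM in HepKO. The change of Nr0b2 was -0.78 ± 0.14 (adjusted p = 0.00398, edgeR); with library totals it was -0.27 and was not called (adjusted p = 0.16). Nr5a2 encodes LRH-1, an activator of bile acid synthesis genes. Its change of -0.29 ± 0.09 (adjusted p = 0.0391, edgeR) turned to 0.22 with library totals, and the call was lost on leaving out any single library (adjusted p = 0.0693 to 0.119).

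Rxra, the main RXR partner of liver (chromosome 2, 27676440 to 27762957, plus strand), stood at 404, 365 and 478 CPM in WT and at 172, 237 and 234 CPM in HepKO. It fell by 0.96 ± 0.16 on the log2 scale (adjusted p = 0.00285, edgeR), with HepKO replicate 1 the lowest. Thrb, the chief thyroid hormone receptor of hepatocytes, went from 51, 59.4 and 59.7 CPM in WT to 28.1, 34.2 and 31.9 CPM in HepKO. That was a fall by 0.85 ± 0.11 (adjusted p = 0.00106, edgeR). Hnf4a, a master regulator of hepatocyte identity (chromosome 2, 163506808 to 163572910, plus strand), changed far less. It was at 573, 475 and 508 CPM in WT and at 404, 423 and 392 CPM in HepKO, separate but close. Its log2 fold change of -0.35 ± 0.11 (adjusted p = 0.0379, edgeR) turned to 0.16 with library totals, and the call was lost on leaving out any single library (adjusted p = 0.052 to 0.114).

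The remaining metabolic receptors were called on narrow margins or not at all. Rora, an activator of clock and lipid genes, had -0.48 ± 0.13 (adjusted p = 0.0211, edgeR), which turned to 0.03 with library totals; the call was lost without WT replicate 1, WT replicate 2 or HepKO replicate 3 (adjusted p = 0.0567 to 0.0874). Nr3c1, the glucocorticoid receptor, had -0.30 ± 0.09 (adjusted p = 0.032, edgeR), which turned to 0.21 with library totals; the call held only without HepKO replicate 1 among the single-library omissions (0.0293, otherwise 0.0514 to 0.141). Nr1h3, which encodes LXRα, a sensor of oxidised cholesterol, was at 63.4, 69.3 and 76.7 CPM in WT and at 65.5, 53.7 and 65.1 CPM in HepKO. The Nr1h3 groups overlapped, and its change of -0.18 ± 0.12 (adjusted p = 0.252, edgeR) turned to 0.33 with library totals (adjusted p = 0.0424).

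Among the other receptors the firmest rise was that of Rarg, which encodes retinoic acid receptor γ (chromosome 15, 102234938 to 102257517, minus strand). It was at 2.97, 3.34 and 3.4 CPM in WT and at 7.04, 7.07 and 8.03 CPM in HepKO. The groups were separate by a wide gap, and Rarg rose by 1.19 ± 0.18 on the log2 scale (adjusted p = 0.00168, edgeR), with 1.21 without HepKO replicate 1 (adjusted p = 0.00458). Rara, its α subtype, moved the opposite way from 17.7, 18.2 and 18.1 CPM in WT to 11.1, 9.63 and 9.37 CPM in HepKO. It fell by 0.85 ± 0.12 (adjusted p = 0.00125, edgeR). Rarb, the β subtype, had 0.69 ± 0.28 and was not called (adjusted p = 0.0871, edgeR), but was called without WT replicate 2 (1.0, adjusted p = 0.031) and by DESeq2 (adjusted p = 0.0468). Top2b covers 34.1% of the exon length of Rarb on the opposite strand. Markers of stellate cells, which store retinoids, summed to 213 to 314 CPM in WT and 287 to 384 CPM in HepKO, with 1 of 6 called higher under TMM, and endothelial markers to 144 to 179 and 157 to 205 CPM, with none of 6 called under TMM (1 higher at an unadjusted p under 0.05, and 0 called by DESeq2). With library totals 5 of the 6 stellate markers and 4 of the 6 endothelial markers were called higher, where 46.4% of all tested genes were.

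Pparg, the fat-storage receptor of adipocytes, was at 13.2, 24 and 25 CPM in WT and at 39.0, 27.7 and 31.1 CPM in HepKO. All HepKO values were above all WT values, and the change of 0.65 ± 0.24 was not called (adjusted p = 0.0663, edgeR), though with library totals it was (1.16, adjusted p = 0.00572), and also by DESeq2 (adjusted p = 0.0266). Of 5 adipocyte markers, Plin1 and Lep stayed under 3 counts in every library, and the list summed to 27.3 to 79.4 CPM in WT and 14.1 to 31.1 CPM in HepKO. The 2 tested, named after their values were seen, moved in opposite directions: Fabp4 rose (0.90, adjusted p = 0.0329, edgeR) and Cfd fell (-9.70, adjusted p = 5.28e-04). Their part in the Pparg values was not tested. Ppard, the widely expressed PPAR, went from 5.65 to 5.81 CPM in WT to 6.22 to 8.68 CPM in HepKO and was not called (0.37 ± 0.18, adjusted p = 0.134, edgeR).

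The remaining rises were in genes of few counts. Vdr, the vitamin D receptor, had 0, 4 and 1 counts in WT and 26, 12 and 14 in HepKO, and its log2 fold change was 2.79 ± 0.87 (adjusted p = 0.036, edgeR). The Vdr call was lost on leaving out WT replicate 1, WT replicate 3 or any HepKO library (adjusted p = 0.0706 to 0.145). Nr4a1 and Nr4a3 encode orphan receptors that are induced within minutes of many stimuli. Nr4a1 was at 1.99, 2.26 and 2.11 CPM in WT and at 5.75, 2.88 and 3.56 CPM in HepKO, highest in HepKO replicate 1. The change of Nr4a1 was 0.94 ± 0.30 (adjusted p = 0.042, edgeR), and 0.59 without HepKO replicate 1 (adjusted p = 0.144); the call was also lost without each WT library and without HepKO replicate 3 (0.0679 to 0.101). Nr4a3 had 6, 7 and 1 counts in WT and 68, 52 and 14 in HepKO, a change of 2.64 ± 0.76 (adjusted p = 0.0273, edgeR), and the call was lost without every library except HepKO replicate 3 (0.052 to 0.0826). Nr4a2, their relative, was at 0.79 to 1.28 CPM in WT and 0.691 to 0.93 CPM in HepKO and was not called (-0.32 ± 0.38, adjusted p = 0.558, edgeR). These levels are at the low end, and Kupffer cell markers, recruited macrophage markers and proliferation markers were higher in the HepKO libraries too. Kupffer markers summed to 125 to 238 CPM in WT and 286 to 554 CPM in HepKO, and 4 of 5 rose (2 of 5 without HepKO replicate 1). Recruited macrophage markers summed to 2.96 to 12.4 CPM in WT and 60.1 to 83.3 CPM in HepKO, and all 4 tested of 5 rose. Proliferation markers summed to 2.16 to 6.53 CPM in WT and 50.0 to 91.9 CPM in HepKO, and all 4 rose. Their part in the receptor changes was not tested.

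Esrra, an activator of mitochondrial genes, was at 24.2, 24.5 and 27.4 CPM in WT and at 16.6, 15.4 and 13.7 CPM in HepKO, and fell by 0.73 ± 0.11 (adjusted p = 0.00208, edgeR). Nr2c1, the orphan receptor TR2, was at 22.5, 22.6 and 18.2 CPM in WT and at 13.1, 13.8 and 13.2 CPM in HepKO, and fell by 0.66 ± 0.12 (adjusted p = 0.00416, edgeR). With library totals Esrra had -0.22 and Nr2c1 -0.15, and neither was called (adjusted p = 0.135 and 0.362). Nr2f2, which encodes COUP-TFII, had -0.43 ± 0.12 (adjusted p = 0.0238, edgeR), which turned to 0.08 with library totals; the call was lost without WT replicate 1, WT replicate 2, HepKO replicate 1 or HepKO replicate 2 (0.0516 to 0.0755).

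Esr1, the oestrogen receptor, was at 20, 27.2 and 21.7 CPM in WT and at 33.8, 17.3 and 15.8 CPM in HepKO, where replicate 1 lay above every other library. Its change of -0.04 ± 0.28 was not called (adjusted p = 0.923, edgeR), and without HepKO replicate 1 it was -0.48 (adjusted p = 0.053). The direction of Esr1 turned with library totals (0.46) and without WT replicate 2, HepKO replicate 2 or HepKO replicate 3 (0.11 to 0.15). Nr6a1, an orphan receptor of germ cells, was at 12.2, 12.2 and 12.7 CPM in WT and at 10.9, 8.25 and 8.26 CPM in HepKO, and Nr3c2, the mineralocorticoid receptor, at 23.2, 26.0 and 26.0 CPM and 22.2, 20.2 and 18.2 CPM. Neither was called over all libraries (adjusted p = 0.0537 and 0.0587, edgeR). Both were called lower without HepKO replicate 1 (-0.59 and -0.39, adjusted p = 0.0172 and 0.0397), and with library totals both turned sign (0.08 and 0.20).

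The other members not called under TMM were Nr1h2 (LXRβ), Nr2c2 (TR4), Nr2f1 (COUP-TFI), Nr2f6, Rxrb, Rxrg and Thra, with log2 fold changes from -0.33 ± 0.19 (Rxrg) to 0.90 ± 0.43 (Nr2f1). The groups of Nr2f1 did not overlap, at 0.351 to 0.473 CPM in WT and 0.654 to 0.965 CPM in HepKO, but with 12 to 38 counts a library the change was not called (adjusted p = 0.135, edgeR). With library totals the signs of Nr2c2, Nr2f6 and Rxrg turned (0.35, 0.32 and 0.18). Ocel1 covers 54.4% of the exon length of Nr2f6 on the opposite strand and Mrps25 30.7% of that of Nr2c2, so these values are uncertain.

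Levels of different genes were compared as CPM per kilobase of exon (CPM per kb, TMM-scaled, ± SD, n = 3). In WT, Hnf4a led at 107 ± 10.4, followed by Nr1h4 (87.2 ± 7.46), Nr1i3 (79.7 ± 22.4), Rxra (76.1 ± 10.5) and Ppara (75.7 ± 7.39). Nr1h4, Nr1i3 and Rxra each differed from the next in this order by less than its SD or that of its neighbour. Nr1i2 (52.2 ± 10.1), Nr1h3 (27.8 ± 2.65), Nr0b2 (19.0 ± 1.85), Nr3c1 (15.4 ± 0.906) and Nr5a2 (13 ± 0.777) came next, and the lowest levels were those of Nr4a3 and Vdr. In HepKO, Hnf4a still led at 84.2 ± 3.25 and stood well clear of Nr1h4 (43.8 ± 2.94) and Rxra (39.2 ± 6.71). Nr1h3 moved from rank 7 to rank 4 (24.4 ± 2.67) and Nr1i3, subject to the Tomm40l overlap, from rank 3 to rank 7 (19.0 ± 5.15). Ppara (22.5 ± 3.81) and Nr1i2 (22.5 ± 2.06) were level there. Within the run of Nr1h3, Ppara, Nr1i2 and Nr1i3, no gene differed from its neighbour in that run beyond the spread. Pparg moved from rank 14 (7.03 ± 2.21) to rank 10 (11 ± 1.96), beside Nr0b2 (11.1 ± 1.62) and Nr5a2 (10.6 ± 0.551).

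The make-up of receptor families was compared too. A subtype's share of its family, from counts per exon length, does not depend on the scaling between libraries. Over 11 families and 27 shares, 19 shares in 9 families did not overlap between WT and HepKO. The exceptions were HNF4 and the pair of glucocorticoid and mineralocorticoid receptors. Where a family held only a pair of subtypes, their shares mirror each other. Such shares are not separate results, though the count and the adjustment take both. Shares in families of other genes were not computed, so this count has no background. With 3 libraries against 3, a 2-sided exact permutation test cannot go below p = 0.10, and each of the 19 reached that value (adjusted p = 0.14 over 27 shares), so none passes a threshold of 0.05.

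Ppara made up 92.9, 89.5 and 90.0% of PPAR message in WT and 57.6, 72.1 and 65.2% in HepKO. Pparg took 6.09, 9.64 and 9.18% in WT and 38.9, 25.3 and 32.3% in HepKO. PPAR message thus went from 90.8% ± 1.8 (SD, n = 3) Ppara to 65.0% ± 7.3, with HepKO replicate 1 the most shifted. Without that library the difference was -22.1 percentage points, against -25.8 with it.

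In the RAR family, Rara made up 70.2% ± 3.6 (SD, n = 3) of message in WT and 40.6% ± 0.77 in HepKO. Rarg went from 12.9% ± 0.80 to 30.9% ± 5.0 and Rarb from 16.9% ± 4.0 to 28.4% ± 5.5. The 3 subtypes were thus nearer to equal in HepKO, subject to the Top2b overlap of Rarb. For the RXR family, Rxra went from 90.7% ± 1.3 to 84.2% ± 3.3 and Rxrb from 5.78% ± 0.93 to 10.7% ± 1.6. Rxra remained the main RXR in every library. Thrb went from 79.4% ± 1.3 to 67.1% ± 2.9 of thyroid hormone receptor message. Nr1i3 was 60.0% ± 2.7 of PXR and CAR message in WT and 45.2% ± 4.2 in HepKO, subject to the Tomm40l overlap.

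Smaller shifts were seen for Nr1h3 among the LXRs (82.6% ± 0.94 and 79.7% ± 1.2) and Nr2c1 of TR2 and TR4 (64.1% ± 2.1 and 55.9% ± 0.43). The share of Nr2c1 is subject to the Mrps25 overlap of Nr2c2. Within NR4A, Nr4a2 went from 28.7% ± 5.2 to 14.0% ± 2.7. In contrast, Nr3c1 made up 79.9% ± 0.90 and 80.1% ± 1.3 of its pair (exact permutation p = 0.90), a difference of 0.155 percentage points, which is under the spread of either group.

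**Figure D3:**
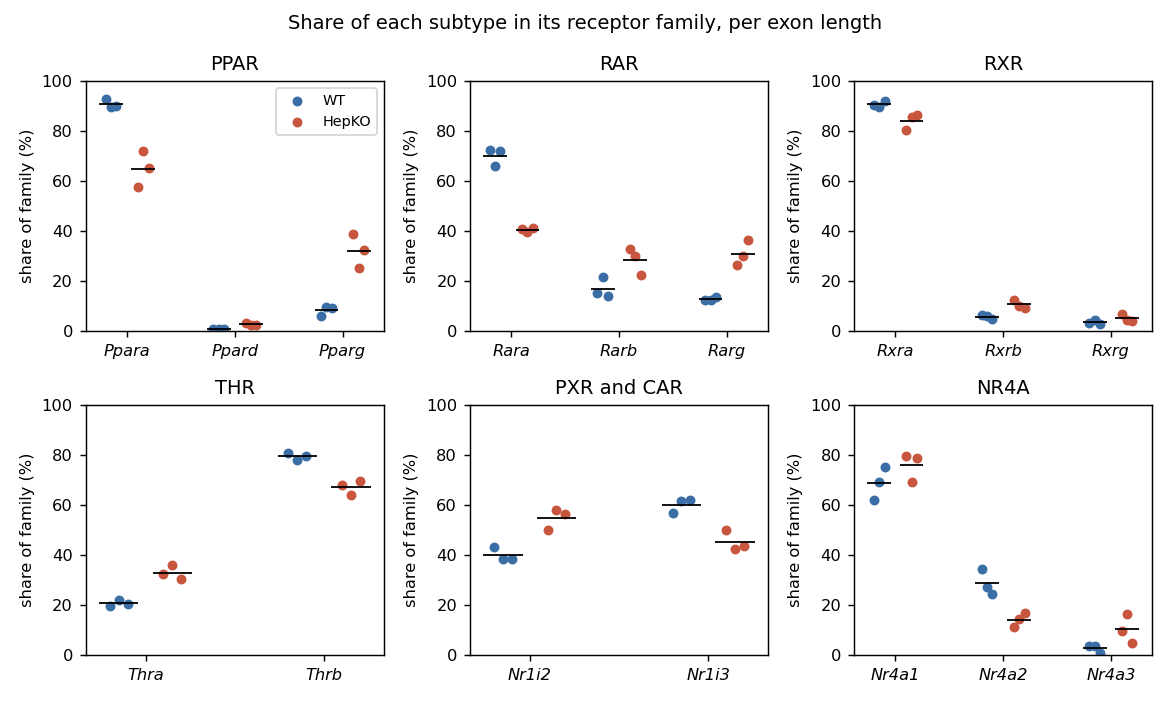
Share (%) of each subtype in the summed counts per exon length of its receptor family, for 6 families, with 1 point per library (blue, WT; red, HepKO) and a bar at each group mean. Ppara, Rara, Rxra, Thrb and Nr1i3 lost share in HepKO with no overlap between groups, and Pparg, Rarb, Rarg, Rxrb, Thra and Nr1i2 gained it.

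Coregulators and other receptors were read from the same test. Of 11 coactivators 4 fell and none rose (median -0.28), with 0 higher also by DESeq2 or at an unadjusted p under 0.05. The falls of Ppargc1a and Ppargc1b, partners of PPARα and ERRα in mitochondrial and fat-burning programmes, were the largest. Ppargc1a went from 21.0, 19.1 and 15.4 CPM in WT to 12.0, 8.43 and 6.53 CPM in HepKO (-1.04 ± 0.23, adjusted p = 0.00935, edgeR). Ppargc1b had -0.98 ± 0.20 (adjusted p = 0.00738, edgeR). Neither was called with library totals (adjusted p = 0.0879 and 0.0885), and the change of the acetyltransferase gene Ep300 turned there from -0.37 to 0.14. With that scaling 4 coactivators were called higher and none lower, where 46.4% of all tested genes were called higher and 5.84% lower. Of 8 corepressors 2 rose and 2 fell under TMM (median 0.21), whereas with library totals 6 were called higher and 0 lower (median 0.72). The median of all genes was 0.01 under TMM and 0.52 with library totals. Under TMM 19.5% of all tested genes were called higher and 18.7% lower. Lcor (0.58 ± 0.16) was among those that rose (adjusted p = 0.0218, edgeR), and Hdac3, the deacetylase of the NCoR complex, had -0.34 ± 0.10 (adjusted p = 0.0303), which turned to 0.17 with library totals. Of 13 receptors outside the members, 6 were tested and 3 fell, among them Esrrg (-2.86 ± 0.42, adjusted p = 0.00155) and Nr1d2 (-0.77 ± 0.10, adjusted p = 0.00112), each by edgeR. The fall of Nr1d2 was not called with library totals (adjusted p = 0.0696). The calls of Lcor, Hdac3 and Ep300 were lost without HepKO replicate 3 (adjusted p = 0.0703, 0.063 and 0.0639). Ep300 was also lost without WT replicate 2 or 3, Lcor without WT replicate 1 or 3 or HepKO replicate 2, and Hdac3 without any WT library or HepKO replicate 2 (adjusted p = 0.064 to 0.106).

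In 9 of 10 lists of known receptor targets more genes were called lower than higher under TMM, and in 6 of 10 with library totals, beside the lower hepatocyte marker sum given above. Of all tested genes 19.5% were called higher and 18.7% lower under TMM, and 46.4% and 5.84% with library totals. Of 16 PPARα targets 12 fell and 2 rose under TMM, with a median of -1.17, and 10 fell and 3 rose with library totals. Cpt2, a mitochondrial carnitine enzyme, fell from 146, 141 and 183 CPM in WT to 64.3, 64.6 and 69.6 CPM in HepKO (-1.24 ± 0.12, adjusted p = 3.51e-04, edgeR). The 2 that rose were Fgf21, a stress-induced hormone (1.62, adjusted p = 0.00836), and Pdk4, a brake on pyruvate oxidation (0.97, adjusted p = 0.0424); both were named after their values were seen. The call of Pdk4 was lost without HepKO replicate 1 (adjusted p = 0.0651).

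The drug-clearing targets of CAR and PXR fell in 6 of 10 cases under TMM and none was called higher there by edgeR (median -1.42). At an unadjusted p under 0.05 there was 1 higher, Gadd45b (1.02, adjusted p = 0.0554), which was named after its values were seen and which DESeq2 called. With library totals 4 of the 10 were called lower and 1 higher, Gadd45b (1.53, adjusted p = 0.0083). Cyp3a11 went from 2498, 3059 and 3096 CPM in WT to 566, 424 and 469 CPM in HepKO (-2.57 ± 0.16, adjusted p = 9.83e-05, edgeR). Cyp2c29 was at 1396 to 1751 CPM in WT and, in HepKO, at 316 CPM in replicate 1 and 46.5 and 76.7 CPM in the others (-3.46 ± 0.67, adjusted p = 0.00536). The same list had 8 called lower without HepKO replicate 1. Alas1, the first enzyme of haem synthesis, had -2.26 ± 0.41 (adjusted p = 0.00382). Cyp3a11 and Cyp2c29 belong to families of near-identical genes, and reads may have been split among them.

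For FXR, 2 of 4 induced targets tested and all 3 repressed targets fell. The bile salt pump gene Abcb11 fell (-1.07 ± 0.18, adjusted p = 0.00294, edgeR), as did Baat, which conjugates bile acids (-0.66 ± 0.11, adjusted p = 0.00315), but Baat was not called with library totals (adjusted p = 0.263). Slc51b, the exporter subunit, stood at 2.15 ± 0.77 and was not called (adjusted p = 0.0589), though it was without WT replicate 1 (3.24, adjusted p = 0.0222) and by DESeq2 (adjusted p = 0.0258). The 3 genes that FXR is known to repress were Slc10a1, the bile acid uptake carrier (-2.58 ± 0.26, adjusted p = 3.99e-04), Cyp7a1, the rate-limiting enzyme of bile acid synthesis (-1.33 ± 0.35, adjusted p = 0.0195), and Cyp8b1 (-1.10 ± 0.27, adjusted p = 0.0144). Cyp7a1 and Cyp8b1 were not called with library totals (adjusted p = 0.0793 and 0.0964). The call of Cyp7a1 was lost without HepKO replicate 1 or 3 (adjusted p = 0.0516 and 0.064), and that of Cyp8b1 without HepKO replicate 3 (0.0527).

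LXR targets were mixed, with 2 higher and 6 lower of 10 under TMM (median -0.62) and 3 higher and 3 lower with library totals (median -0.10). Scd1, a fatty acid desaturase, went from 54609, 57872 and 39668 CPM in WT to 9926, 11954 and 10270 CPM in HepKO (-2.24 ± 0.21, adjusted p = 3.04e-04, edgeR). Lpl, the lipoprotein lipase of extrahepatic tissues and macrophages, rose from 64.7, 45.9 and 49 CPM to 261, 214 and 292 CPM (2.26 ± 0.17, adjusted p = 1.49e-04), beside the macrophage marker rise given above. Lpcat3 fell by 0.82 ± 0.09 (adjusted p = 6.09e-04). The other LXR target that rose, named after its values were seen, was the cholesterol exporter gene Abcg1 (1.44, adjusted p = 0.00161).

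Of 9 HNF4α targets 8 fell and none rose (median -0.78), 4 of them also with library totals. DESeq2 and an unadjusted p under 0.05 gave 0 risers there too. Apoa2 had -1.58 ± 0.15 (adjusted p = 3.12e-04), F7, a clotting factor, -1.07 ± 0.11 (3.99e-04) and Otc, of the urea cycle, -1.03 ± 0.16 (adjusted p = 0.00211), all by edgeR. This list shares members, Ttr among them, with the hepatocyte markers. Of 8 glucocorticoid receptor targets 7 fell and none rose under TMM, also by DESeq2 or at an unadjusted p under 0.05 (0 higher), with a median of -1.66. This list too shares a gene, Tat, with the hepatocyte markers. With library totals 6 were called lower and 1 higher, Sgk1, a kinase gene named after its values were seen (0.79, adjusted p = 0.0367). Examples were Zbtb16 at -3.10 ± 0.25 (adjusted p = 1.65e-04), Pck1, of gluconeogenesis, at -1.81 ± 0.20 (5.69e-04) and Fkbp5, a receptor chaperone, at -1.14 ± 0.13 (5.65e-04).

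Of 5 thyroid hormone receptor targets 3 fell and 1 rose. Thrsp, a lipogenic regulator, fell by 3.12 ± 0.25 (adjusted p = 1.64e-04, edgeR) and Klf9 had -1.22 ± 0.18 (adjusted p = 0.00171). Hr, the one that rose, was at 0.338, 1 and 0.556 CPM in WT and at 4.58, 6.49 and 6.66 CPM in HepKO (3.20 ± 0.40, adjusted p = 8.57e-04). Of 4 retinoic acid receptor targets tested, Tgm2, a transglutaminase, rose by 1.62 ± 0.13 (adjusted p = 1.60e-04), while Cyp26b1 and Dhrs3 were not called (0.32 ± 0.23 and -0.13 ± 0.13, adjusted p = 0.312 and 0.478); with library totals both were called higher (0.82 and 0.38, adjusted p = 0.0211 and 0.0307), which made 3 of the 4 higher there. Of 4 PPARγ targets tested 1 fell, the lipid droplet gene Plin4 (-2.26 ± 0.38, adjusted p = 0.0028), while Mogat1 and Cidec were not called (-1.43 ± 0.62 and -0.88 ± 0.45, adjusted p = 0.104 and 0.161), and Mogat1 was called lower without HepKO replicate 1 (-2.51, adjusted p = 0.00535), by DESeq2 (adjusted p = 0.0272) and with no low-count filter (0.00337). Cidec was called lower with no low-count filter (adjusted p = 0.00563) and with the replicate number as a block (0.00464). With library totals 1 of the 4 PPARγ targets tested was called higher and 1 lower.

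**Figure D4:**
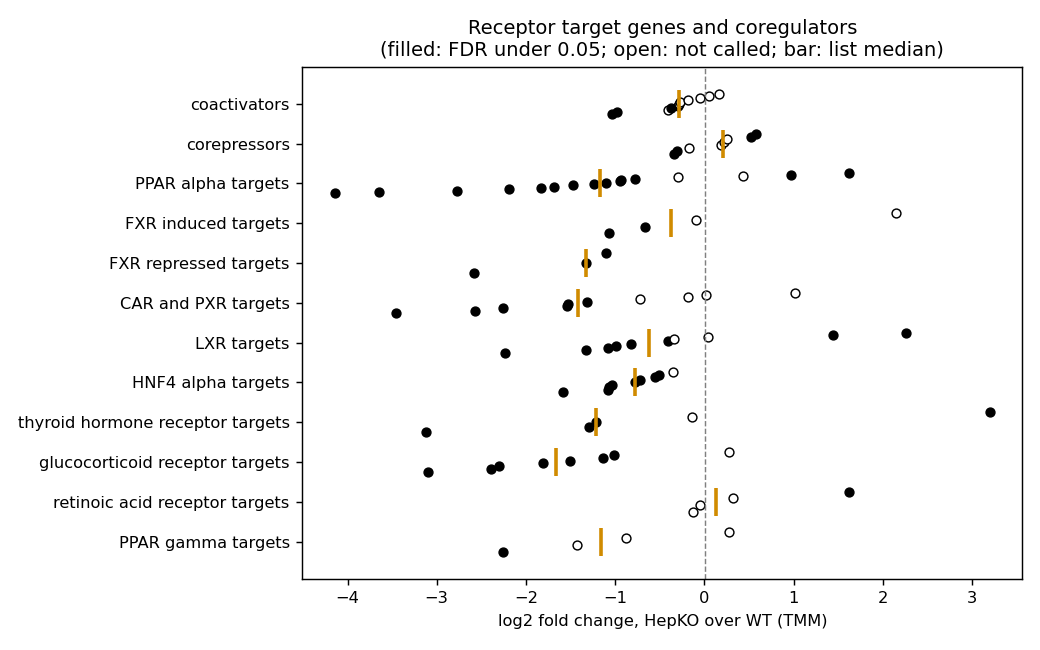
log2 fold change (TMM, HepKO over WT) of each tested coregulator and receptor target gene by list, filled where the adjusted p was under 0.05, with an orange bar at each list's median and a dashed line at the median of all genes (0.01). Medians of the PPARα (-1.17), CAR and PXR (-1.42) and glucocorticoid receptor (-1.66) target lists lay left of the line, and that of the corepressors (0.21) right of it; with library totals the line stood at 0.52.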

How the data were processed

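The authors deposited 1 table of raw read counts per gene for 6 liver libraries. Per the labels' protocols, RNA was purified with a column kit and libraries were made with a stranded mRNA kit. The submitters' processing notes name STAR 2.7.11a, bcl2fastq, edgeR 3.40.2 and, with Subread 2.0.0, featureCounts, on mm10. Neither the strand option of the counting nor its gene annotation is given in the sources used here, so overlapping genes on opposite strands could not be told apart. Of 56350 IDs, 55480 matched GENCODE M21 without version, and the other 870 had no symbol.

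The whole table was fitted with the quasi-likelihood test of edgeR 4.0.16 (R 4.3.3), 2-sided, after filterByExpr by group and TMM scaling, with no covariate. A gene was called at a Benjamini-Hochberg adjusted p under 0.05 over 16051 genes. The standard error is the size of the log2 fold change over the square root of F. Exon lengths were unions of GENCODE M21 exons. The code was tested on simulated data. Alternatives were library totals, median-of-ratios factors, DESeq2 1.42.0, limma-voom (limma 3.58.1), 2 other filters, a threshold of 0.01, a narrower list of 9 metabolic receptors, the replicate number as a block, and leaving out each library.

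The members, lists and tests were chosen with earlier results of these data known. The text names all 35 members, Atg14 and, from each list, the 3 tested genes of smallest p plus any gene that alone went the other way; other genes are said to be chosen after their values were seen. Some genes that the rule takes are not reported here. Sample groups came from the genotype labels. Same-numbered WT and HepKO libraries did not deviate together (correlations -0.14, -0.11 and 0.03), so numbers were not taken as pairs. Within a group every pair of libraries differed by more than counting noise (chi-square over its degrees of freedom 24.2 to 117). Counting error limits Vdr, Nr4a2, Nr4a3, Nr2f1 and Hnf4g, with fewer than 100 counts in every library.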

Additional observations from a re-analysis of the deposited data

How the results depend on the processing

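With library totals the receptors called higher numbered 13 and lower 7, of which 1 and 6 were metabolic and 12 and 1 were others, and the median log2 fold changes were -0.31 and 0.51. Signs then turned for Hnf4a (0.16), Nr1h3 (0.33), Nr2c2 (0.35), Nr2f2 (0.08), Nr2f6 (0.32), Nr3c1 (0.21), Nr3c2 (0.20), Nr4a2 (0.19), Nr5a2 (0.22), Nr6a1 (0.08), Rora (0.03), Rxrg (0.18), Esr1 (0.46), Ep300 (0.14), Hdac3 (0.17) and Dhrs3 (0.38). The construction accounts for these: this scaling shifts every fold change by about the same amount.

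Calls of higher receptors numbered 2, all among the other receptors, with the filter of 1 CPM in 3 libraries (where low genes were not tested) and with limma-voom. At an adjusted p under 0.01 there were 1 higher receptor, also among the others, 7 lower metabolic receptors and 3444 called genes. The narrow list of 9 metabolic receptors put 7 called lower among the others, with medians of -0.96 and -0.16. DESeq2 called 6 receptors higher, Pparg and Rarb in addition. Median-of-ratios factors and no filter kept every receptor count within 1.5 times, but with no filter the calls of Hnf4a (adjusted p = 0.0513), Nr3c1 (0.0759), Nr5a2 (0.0841) and Vdr (0.0883) were lost and Pparg (0.00523) and Rarb (0.0368) were called higher. With the replicate number as a block, 2 higher receptors were called, both among the others, with 11 lower, 8 of them metabolic; the calls lost were those of Hnf4a, Nr2f2, Nr3c1, Nr4a1, Nr5a2 and Vdr.

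Leaving out each library in turn gave 1 to 3 higher receptors, all others, and 10 to 14 lower, of which 7 to 9 were metabolic and 3 to 5 others. No metabolic receptor was called higher (0 to 0), the medians ran from -0.87 to -0.73 and from -0.07 to 0.12, and 4392 to 5587 genes were called. Signs turned for Nr1h2 (-0.0021 without HepKO replicate 3, range to 0.15), Rxrb (-0.0041 without HepKO replicate 2, range to 0.13), Thra (-0.05 without WT replicate 1 and -0.13 without HepKO replicate 2, range to 0.19), Esr1 (0.12 without WT replicate 2, 0.11 without HepKO replicate 2 and 0.15 without HepKO replicate 3, range from -0.48) and Dhrs3 (0.0042 without WT replicate 3, range from -0.23); the cause was not tested. No subtype share difference moved by more than its replicate spread.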
